A study of Mus musculus with 4 samples.

Results

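Glucose enters a cell through a transporter and is broken down to pyruvate and lactate by a chain of cytosolic enzymes. The 10 genes described here encode one such transporter and 9 enzymes of this chain, and were chosen by their symbols among the 32285 gene rows of the tables. They are Slc2a1, Hk2, Gpi1, Aldoa, Tpi1, Gapdh, Pgk1, Eno1, Pkm and Ldha. The symbols matched 11 rows, because Aldoa stands on 2 rows with different gene identifiers. The row of the main Aldoa gene was used, and the second row, a neighbouring gene model that held 2, 3, 2 and 5 UMIs in the 4 sections, was kept apart (a unique molecular identifier, or UMI, marks 1 captured RNA molecule).

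The genes were measured with 10x Genomics Visium, which reads the RNA of a tissue slice at a grid of barcoded positions called spots, each wide enough to take in several cells. The 4 fresh frozen sections came from MC38 tumors (an established mouse colon carcinoma line) growing subcutaneously in F1 females. The females were 8 to 12 weeks old when the tumor cells were injected. The hosts were C57BL/6J x CC075/UncJ (CC075F1, 2 sections), which the study classes as a responder strain to anti-PD-1, and C57BL/6J x CC080/TauUncJ (CC080F1, 2 sections), which it classes as a non-responder strain. All 4 mice had received 1 dose of 200 µg of isotype control antibody (clone 2A3) when tumors measured 75 to 110 mm3, and the tumors were taken 48 hours later, so no anti-PD-1 treated tumor is described. The injected line and the antibody were the same for all, and the labels differ in host genotype alone.

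Tumor cells commonly take up much glucose and turn it into lactate even where oxygen is present, and cells short of oxygen do so more strongly. Under low oxygen the hypoxia-inducible factor (HIF) is stabilised and raises transcription of many genes of this pathway, among them Slc2a1, Pgk1 and Ldha. Slc2a1 encodes the glucose transporter GLUT1, and Hk2 encodes hexokinase 2, which phosphorylates the glucose and so holds it in the cell. Gpi1 converts the resulting sugar phosphate to its fructose form, Aldoa cleaves the later bisphosphate into triose phosphates, and Tpi1 interconverts these. Gapdh, Pgk1, Eno1 and Pkm carry the triose to pyruvate, with ATP made at the Pgk1 and Pkm steps, and Ldha reduces pyruvate to lactate.

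HIF binds DNA at a short core, of which ACGTG and GCGTG are the usual forms, so the promoters of 4 of these genes are shown with both forms in capitals on either strand. The windows are 300 bases long, most of them before a start site in RefSeq, on build GRCm38.p6, and are written along the gene's strand. Slc2a1, Pgk1 and Ldha are shown as well-known HIF targets that span the pathway from entry to lactate, and Tpi1 as a member whose window holds neither form.
Slc2a1 (chr4:119108495-119108794, + strand): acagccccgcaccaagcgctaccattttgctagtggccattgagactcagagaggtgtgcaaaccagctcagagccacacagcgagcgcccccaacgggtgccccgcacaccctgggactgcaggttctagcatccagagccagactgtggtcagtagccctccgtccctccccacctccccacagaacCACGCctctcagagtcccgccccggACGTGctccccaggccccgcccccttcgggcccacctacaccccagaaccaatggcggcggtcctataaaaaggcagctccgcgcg
Pgk1 (chrX:106186850-106187149, + strand): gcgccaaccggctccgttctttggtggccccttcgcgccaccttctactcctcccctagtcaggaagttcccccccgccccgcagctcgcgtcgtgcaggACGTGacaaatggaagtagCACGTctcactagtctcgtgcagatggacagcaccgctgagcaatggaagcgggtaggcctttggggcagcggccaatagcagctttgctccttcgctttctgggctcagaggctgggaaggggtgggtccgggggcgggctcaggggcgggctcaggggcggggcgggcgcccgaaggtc
Ldha (chr7:46845554-46845853, + strand): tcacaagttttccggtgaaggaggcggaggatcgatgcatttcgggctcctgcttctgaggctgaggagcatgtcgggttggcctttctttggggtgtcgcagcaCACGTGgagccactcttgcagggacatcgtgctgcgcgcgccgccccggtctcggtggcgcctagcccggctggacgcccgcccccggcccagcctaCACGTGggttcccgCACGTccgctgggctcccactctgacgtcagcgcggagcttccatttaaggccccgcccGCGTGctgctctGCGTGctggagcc
Tpi1 (chr6:124814109-124814408, - strand): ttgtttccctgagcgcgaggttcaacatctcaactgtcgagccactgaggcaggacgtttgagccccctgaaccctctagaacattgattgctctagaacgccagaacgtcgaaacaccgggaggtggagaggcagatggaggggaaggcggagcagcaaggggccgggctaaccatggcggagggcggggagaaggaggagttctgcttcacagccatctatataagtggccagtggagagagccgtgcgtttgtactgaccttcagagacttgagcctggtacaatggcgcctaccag
All 10 genes had at least 1 window in RefSeq, 16 windows in all. ACGTG, searched on both strands, was found in a window of 7 of the 10 genes and in 8 of the 16 windows, and in 19.6% of all 32851 mouse windows of the same length. GCGTG was found in windows of 4 of the genes, 7 windows in all, and in 32.4% of all windows. Some windows of Aldoa and of Eno1 overlapped, so the same site was counted more than once. The counts of genes take any window of a gene, so they are not on the scale of the shares per window. The mean share of G and C bases was 62.5% in these 16 windows and 53.8% over all windows. A match describes the letters in a window and is not evidence of binding. Where the 6 letters CACGTG occurred, as in the Ldha window shown, the palindrome was counted once on each strand. This gave the Ldha window shown 5 matches to ACGTG, the Pgk1 window 2 and the Slc2a1 window 1. Another Ldha window, not shown, held no ACGTG.

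The sections held 2710 to 3276 spots under tissue, 11947 in all, and 82594649 to 146460975 UMIs, with CC075F1 replicate 2 the deepest. Levels are given as CPM, the UMIs of a gene per 1000000 UMIs of the section. The marker list for the tumor epithelium summed to 123 to 268 CPM and the macrophage list to 3938 to 6437 CPM. RNA of both lists was thus present in all sections. The former list held Krt7, Krt8, Krt18, Krt19, Epcam and Shisal2b, the last being the study's marker of MC38 cells. Its sum does not separate keratin RNA from Shisal2b RNA. Skeletal muscle, skin or fat markers reached 1% of UMIs in 38 spots, all in CC075F1 replicate 2 and all near its edge. In bulk profiles of mixed tissue, fewer cells of a type and less RNA per cell cannot be told apart.

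The 10 genes together made up 0.990% and 0.988% of all UMIs in the CC075F1 pair of sections, and CC080F1 stood at 0.801% in replicate 1 and 0.970% in replicate 2. CC080F1 replicate 1 was the lowest of the 4 sections for the sum, and the other CC080F1 section lay close to CC075F1. Because 1 section set the gap, the strains were compared gene by gene. Values below are in the order CC075F1 replicate 1, CC075F1 replicate 2, CC080F1 replicate 1, CC080F1 replicate 2.

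Slc2a1, the point of entry of glucose, stood at 75.3, 110.1, 95.9 and 120.1 CPM, and the strains overlapped. Hk2 was at 15.4, 9.49, 18.2 and 13.4 CPM, again with overlap, and at this depth it was detected in only 31.3% to 40.6% of spots, against 70.4% to 80.7% for Slc2a1. Gpi1, the isomerase, was at 354, 287, 324 and 360.2 CPM. Its lowest and its second highest section were both CC075F1, so the strains were interleaved.

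In the middle of the pathway, Aldoa was at 712, 697, 539 and 719 CPM, where CC080F1 replicate 1 lay below the other 3 sections. Tpi1 was at 564, 579.8, 474 and 540.4 CPM. Gapdh, which carries out the oxidation step that yields NADH and is often used as a reference gene, was at 2844, 3628, 2216 and 2722 CPM. Tpi1 and Gapdh were the only members whose CC075F1 sections both lay above both CC080F1 sections, 2 of 10, where 6.63% of the 15572 genes tested did so and 36.9% did not overlap in either direction. The sections of a strain still lay apart for Gapdh, with SDs of 554 CPM in CC075F1 and 358 CPM in CC080F1 (n = 2 each).

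For the later enzymes the strains overlapped, and the lowest section was CC080F1 replicate 1 for Pgk1 and Ldha and CC075F1 replicate 2 for Eno1 and Pkm. Pgk1 was at 1205, 1125, 929 and 1215 CPM and Eno1 at 508, 409.9, 416 and 551 CPM. Pkm, whose product is pyruvate, was at 2082, 1525, 1713 and 1935 CPM, so that the 2 CC075F1 sections were its highest and lowest. Ldha was at 1540.2, 1505, 1286 and 1524 CPM, with CC080F1 replicate 1 below the rest. Reads of Eno1 can be shared with the near-identical retrogene copy Eno1b, which was listed at 8.40 to 13.2 CPM, and several members, Gapdh and Ldha among them, have processed pseudogenes in the mouse genome, so their split of reads is uncertain.

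**Figure D1:**
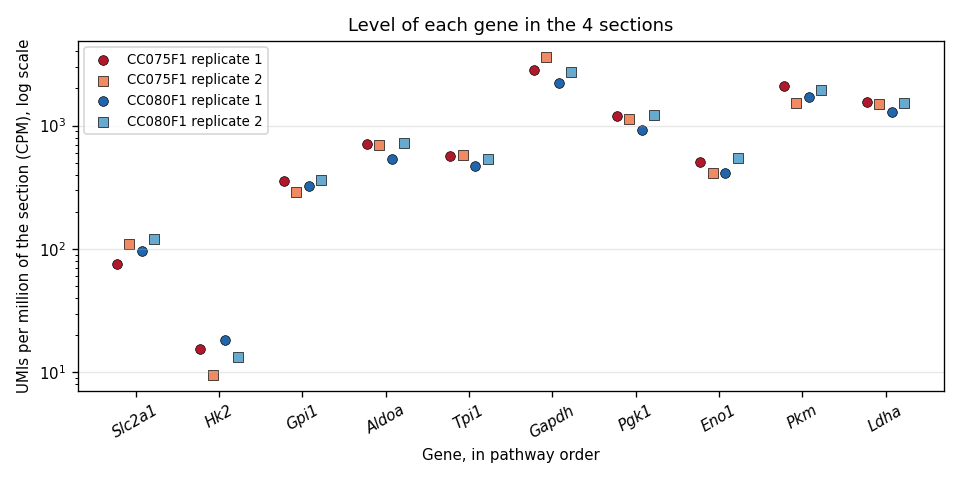
Level of each gene in each section, in CPM on a log axis, with genes in pathway order. Circles and squares are replicates 1 and 2, reds CC075F1 and blues CC080F1. The strains separate only for Tpi1 and Gapdh, where both CC075F1 sections lie above both CC080F1 sections, and levels are not meant to be ranked between genes.

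None of the 10 genes passed the test between strains. In edgeR's quasi-likelihood test over sections with Benjamini-Hochberg adjustment over all 15572 genes, 0 of 10 members were called, where 0.0899% of all genes were called (14 genes, with 846 and none of the members at an unadjusted p under 0.05), and DESeq2's Wald test called 194 genes and 0 members. The fitted log2 fold changes, CC075F1 over CC080F1, ran from -0.06 for Hk2 (SE 0.20) to 0.75 for Gapdh (SE 0.49, adjusted p = 0.830), and 9 of 10 were positive, with a median of 0.36 beside -0.02 over all genes tested. Next after Gapdh came Tpi1 at 0.51 (SE 0.33) and Aldoa at 0.49 (SE 0.36). These SEs leave room for changes of either sign in most members. The direction rested on the scaling, since with library size alone, which moved the median of all genes to -0.31, 5 of 10 members were positive and Slc2a1 (-0.22), Gpi1 (-0.093), Eno1 (-0.075) and Pkm (-0.016) changed sign. An exact permutation test of 2 against 2 sections cannot give a p below 0.333.

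The 10 genes were far from even within a section. Their summed level per spot, in UMIs per 10000 UMIs of the spot, had medians of 88.3, 83.7, 68.4 and 87.4, with a 5th percentile of 51.6 to 62.6 and a 95th percentile of 145 to 169. High spots lay together in patches and bands of tissue. Moran's I, which is 0 for a random scatter and near 1 where neighbouring spots are alike, was computed over the 6 nearest spots on log2(CPM + 1). It was 0.58 ± 0.17 for Gapdh, 0.53 ± 0.13 for Ldha, 0.51 ± 0.11 for Pgk1, 0.46 ± 0.08 for Aldoa and 0.34 ± 0.05 for Slc2a1 (mean ± SD, n = 4 sections). Pkm followed at 0.37 ± 0.08, Tpi1 at 0.33 ± 0.06, Eno1 at 0.31 ± 0.06 and Gpi1 at 0.22 ± 0.03, and the sparse Hk2 was the lowest at 0.10 ± 0.02. Over the 8413 genes of at least 10 CPM the median was 0.06 and the 90th percentile 0.13, so 9 of the 10 members lay above the latter. Sparse counts blur such a map, so these values describe each gene and do not rank the genes.

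**Figure D2:**
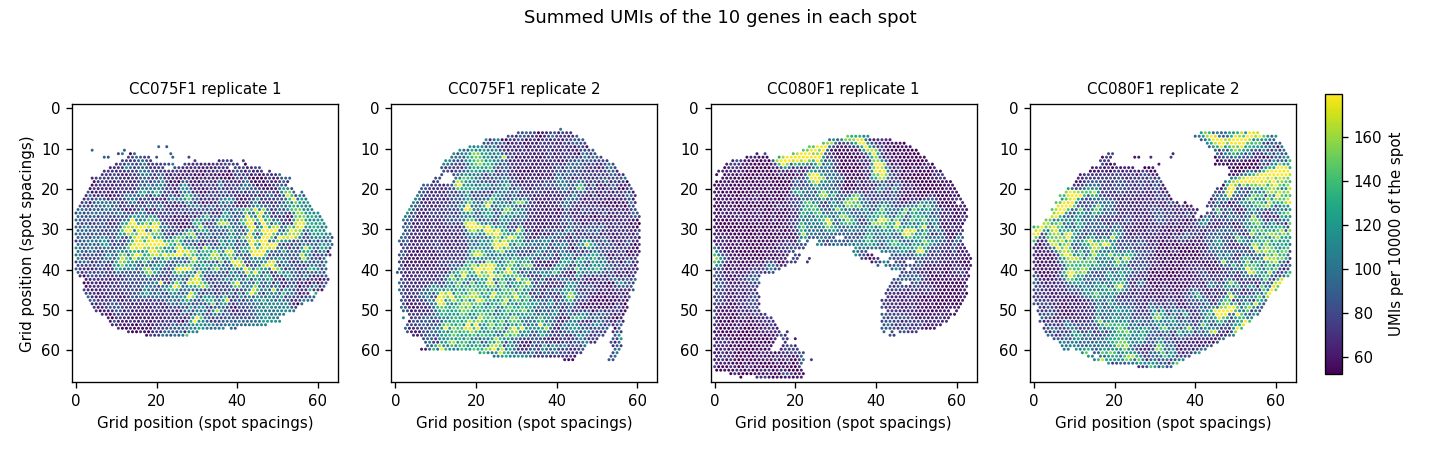
Summed UMIs of the 10 genes per 10000 UMIs of each spot, drawn at the spot's place on the slide grid (axes in spot spacings), with 1 colour scale for the 4 sections. In CC075F1 most high spots form patches inside the section, while in CC080F1 bands of high spots also reach the outline.

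The members rose and fell together from spot to spot. For the 45 pairs, Spearman's rho across the spots of a section had a median of 0.50, 0.56, 0.52 and 0.60 in the 4 sections (2709 to 3276 spots each), and all 45 pairs were positive in every section. These are descriptions without a p-value, since spots of 1 section share a tumor, a library and a depth profile. The closest pair was Pgk1 and Ldha at 0.76 ± 0.04 (SD, n = 4 sections), followed by Aldoa and Ldha at 0.74, Gapdh and Ldha at 0.71 and Aldoa and Pgk1 at 0.71. Ldha was the best partner of Slc2a1, Aldoa, Tpi1, Gapdh, Pgk1 and Pkm. Every pair with Hk2 was weaker, from 0.20 with Gpi1 to 0.27 with Gapdh, at a median of 0 UMIs of Hk2 per spot. Among pairs without Hk2 the weakest was Gpi1 with Eno1 at 0.43.

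These correlations were smaller when counts were thinned or the hypoxic spots were left out, and the cause was not tested. With every spot thinned to 5000 UMIs the medians were 0.23, 0.22, 0.24 and 0.29. Given the spot's UMIs as a partial correlation they were 0.50, 0.53, 0.53 and 0.59. Without the 25% of spots richest in a hypoxia list (described with the hypoxia results) the medians were 0.26, 0.30, 0.24 and 0.36. The Pgk1 and Ldha pair ranged from 0.72 to 0.81 over the 4 sections and the Hk2 and Gpi1 pair from 0.17 to 0.21.

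The summed members followed other lists of genes in the same spots. Their rho was 0.76 ± 0.06 (mean ± SD, n = 4 sections) with the summed hypoxia list (Vegfa, Adm, Ndrg1, Car9, Bnip3, Egln3, Ankrd37, P4ha1, P4ha2 and Kdm3a, which are known HIF targets and hold no member) and 0.74 ± 0.05 with 18 other genes of glycolysis and lactate handling. It was -0.56 ± 0.10 with 12 proliferation genes, -0.44 ± 0.03 with 17 genes of oxidative phosphorylation and the citric acid cycle and -0.09 ± 0.08 with 7 genes of the pentose phosphate pathway, a branch off glucose 6-phosphate. Of the cell type lists, endothelial markers stood at -0.41 ± 0.02 and T and NK cell markers at -0.31 ± 0.10. Macrophage markers ranged from -0.50 in CC075F1 replicate 2 to 0.01 in CC075F1 replicate 1, and fibroblast markers from -0.33 to 0.08, so those relations were not alike between sections of 1 strain. The rho with the spot's total UMIs was 0.13 ± 0.17, and because all levels are shares of a spot's UMIs, a rise of one set lowers the rest.

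**Figure D3:**
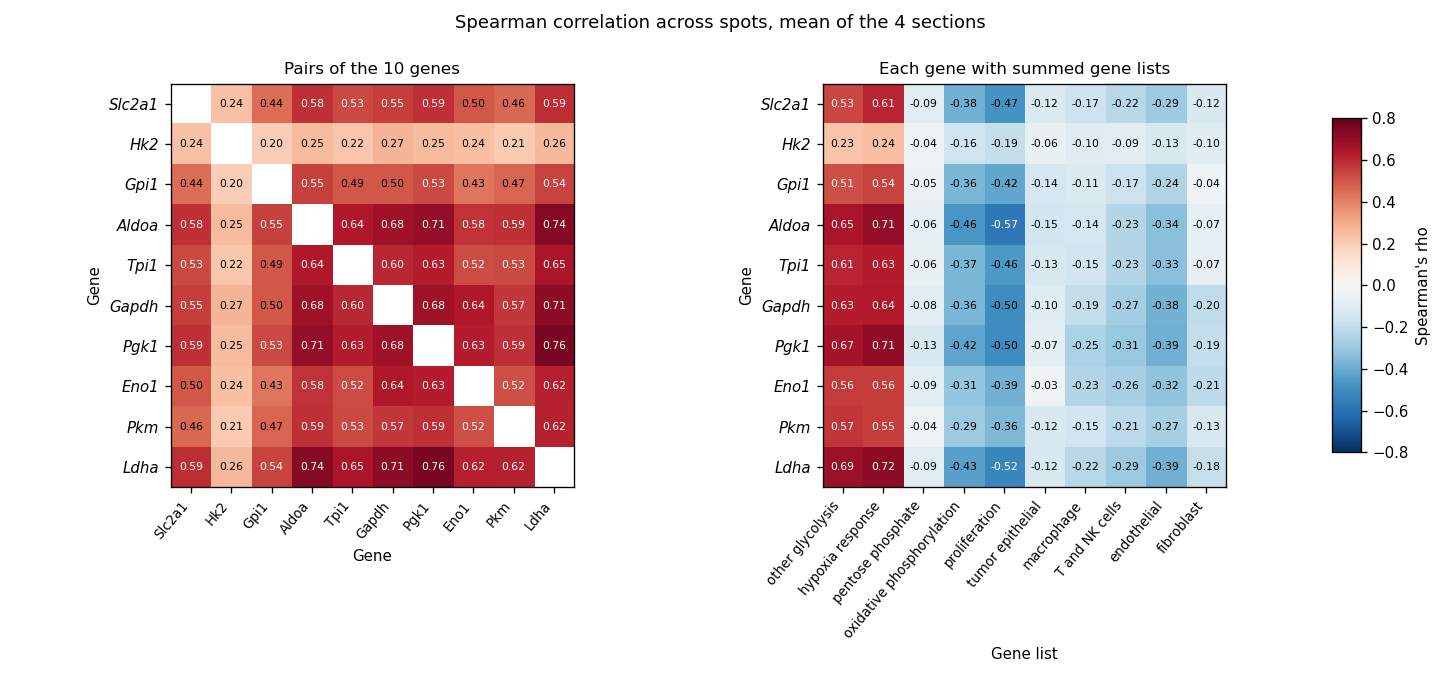
Spearman's rho across spots, as the mean of the 4 sections, for the pairs of the 10 genes (left) and for each gene with the summed UMIs of other gene lists (right), with red for positive and blue for negative. All pairs of members are positive, up to 0.76 for Pgk1 and Ldha, and every member is positive with the hypoxia list and negative with the proliferation list.

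Among the other genes, the 10 whose pattern was most like the summed members, ranked by their lowest rho over the 4 sections, were Mif, Bnip3, Pgam1, Fam162a, Fau, Higd1a, Ero1l, Eif4ebp1, Pfkl and Rps18. Mif, which encodes a secreted cytokine, had a rho of 0.73 to 0.78. Bnip3, a mitophagy gene and HIF target, ranged from 0.69 to 0.79, and Pgam1, the phosphoglycerate mutase that acts between Pgk1 and Eno1, from 0.64 to 0.77. Pfkl, a phosphofructokinase of the step between Gpi1 and Aldoa, ranged from 0.48 to 0.54, while Fau (0.58 to 0.79) and Rps18 (0.45 to 0.64) encode ribosomal proteins. Over 8403 other genes of at least 10 CPM the median of the mean rho was -0.03 and the 99th percentile 0.37. Most opposed were Igfbp7 (-0.46 to -0.43), Tmsb4x (-0.69 to -0.41), Tuba1b (-0.64 to -0.39), Ptma (-0.52 to -0.39) and Calr (-0.54 to -0.35). Igfbp7 is a secreted protein of vessel walls and stroma, Tmsb4x and Tuba1b encode the actin-binding thymosin and an alpha-tubulin, and Calr encodes a chaperone of the endoplasmic reticulum.

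All 10 genes were higher in the hypoxic spots of each section, and Slc2a1 by far the most. Hypoxic spots are the 25% of a section with the most UMIs of the hypoxia list per 10000 UMIs, 678 to 819 spots, and the comparison is with the remaining spots of the same section. Slc2a1 stood at 174, 244, 242 and 339 CPM in hypoxic spots and at 41.4, 51.8, 46.9 and 56.9 CPM in the rest. The lowest hypoxic value was thus above the highest of the rest, with folds of 4.20 to 5.95. Hk2 went from 11.5, 7.55, 13.0 and 9.46 CPM in the rest to 26.7, 14.0, 33.7 and 27.2 CPM, a fold of 1.85 to 2.88. The 4 folds of Hk2 overlapped those of Aldoa (2.13 to 2.51), whereas each fold of Slc2a1 was larger than any of another member.

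Aldoa reached 1176, 1120.1, 982 and 1275 CPM in hypoxic spots against 553, 514, 391 and 558 CPM, and Pgk1, the first step that yields ATP, 1917, 1794, 1562 and 2047 CPM against 960.0, 835, 717 and 975 CPM. The groups did not overlap for either gene, nor for Hk2, Gpi1, Tpi1, Eno1 or Ldha. The share of all genes that separate in this way was not counted. For Eno1 the mean fold was 1.87 ± 0.09 (SD, n = 4), for Tpi1 1.83 ± 0.06, for Gpi1 1.81 ± 0.14 and for Ldha 1.81 ± 0.09, so these 4 genes differed from each other by less than the spread between sections. Gapdh was raised 1.56 ± 0.07 times, and its lowest hypoxic value (3045 CPM) lay under its highest value in the rest (3152 CPM). Pkm had the smallest contrast, from 1899.6, 1394, 1545 and 1774 CPM to 2611, 1828, 2211 and 2494 CPM, a fold of 1.31 to 1.43, and its groups overlapped across sections although each section rose.

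In the edgeR fit with the section as a block, 10 of 10 members passed as higher, where 16.1% of the 15120 genes tested were called higher and 32% in either direction. The log2 fold changes, hypoxic over rest, were 2.50 for Slc2a1 (SE 0.08, adjusted p = 4.06e-07), 1.43 for Hk2 (SE 0.06), 1.37 for Aldoa (SE 0.07) and 1.26 for Pgk1 (SE 0.08). Eno1 (1.08), Tpi1 (1.05), Gpi1 (1.04) and Ldha (1.04) followed, then Gapdh at 0.82 (SE 0.09) and Pkm at 0.65 (SE 0.08, adjusted p = 0.000513). The median over the members was 1.07 and over all genes -0.00. All 10 were also called in the contrast of each strain, where 8.91% of genes were called higher in CC075F1 and 5.87% in CC080F1. The difference between strains was called for 0 of 10 members, where 0.0198% of genes were (3 genes, with 599 and 1 member at an unadjusted p under 0.05), and ran from -0.33 for Hk2 (SE 0.12) to 0.04 for Eno1 (SE 0.13). With library size alone the member values ran from 0.46 to 2.31 and the median of all genes was -0.18.

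With the spots of a section split into 10 equal bins along the hypoxia list, the rise was steepest at the top. Slc2a1 went from 25.5, 30.4, 30.6 and 27.5 CPM in the lowest bin to 38.0, 48.2, 45.4 and 53.0 CPM in bin 5 and 276, 332, 399 and 482 CPM in the highest. Its top bin was 13.1 ± 3.1 times the bottom (SD, n = 4 sections), against 4.16 ± 1.31 for Hk2, 3.77 ± 0.30 for Aldoa and 3.19 ± 0.15 for Pgk1. Eno1, Tpi1, Ldha and Gpi1 gained 2.64, 2.60, 2.56 and 2.56 times, Gapdh 2.05 times and Pkm 1.64 ± 0.13 times. Aldoa, Tpi1, Gapdh, Pgk1, Eno1 and Ldha rose at each of the 9 steps between bins in every section. The list that ordered the spots and the members share each spot's library and depth.

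**Figure D4:**
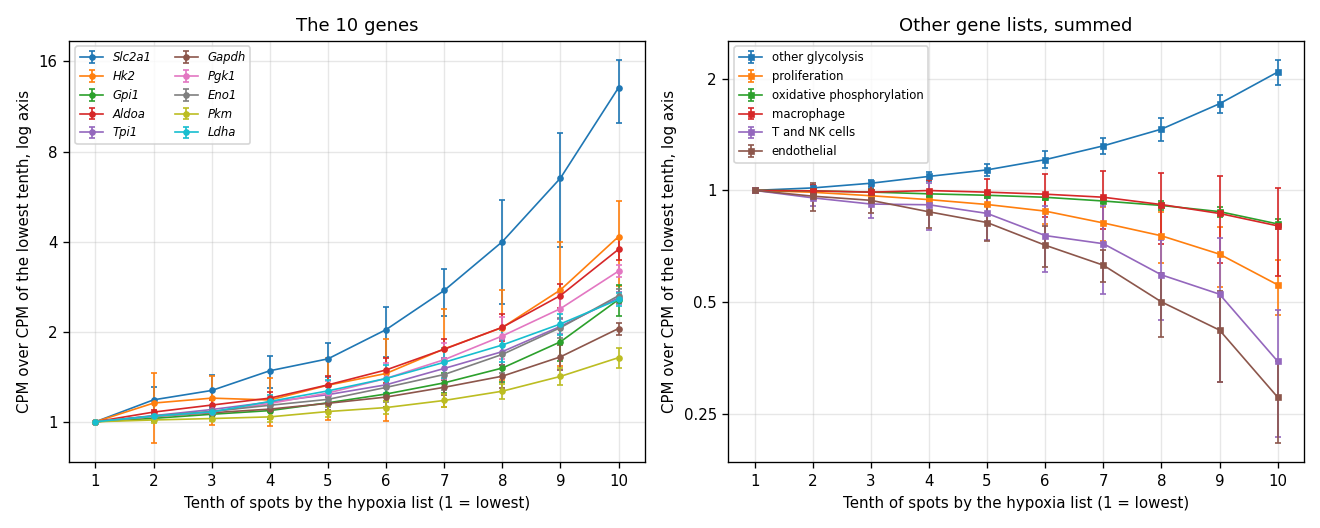
Level in each of 10 equal bins of spots, ordered along the horizontal axis by the hypoxia list, over the level in the lowest bin (log axis), for the 10 genes (left) and for other summed lists (right). Points are means and bars SDs of the 4 sections. Slc2a1 climbs to 13.1 times and Pkm to 1.64 times, while the endothelial list falls to 0.277 times.

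The other genes of the pathway moved less uniformly with hypoxia. Of 18 further genes of glycolysis and lactate handling, 11 passed as higher and 2 as lower in hypoxic spots, where 16.1% of all genes tested were called higher. The largest rises were those of Pdk1, the kinase that closes the way from pyruvate into the mitochondrion (log2 fold change 1.60, SE 0.05), the enolase isoform Eno2 (1.38, SE 0.13), the phosphoglucomutase Pgm1 (1.32, SE 0.06) and Pfkl (1.19, SE 0.05). Of the other hexokinases, Hk1 rose (0.68, SE 0.06) and Hk3 fell (-0.31, SE 0.09), and the aldolase isoform Aldoc rose (1.02, SE 0.13). The transporter Slc2a3 had -0.24 (SE 0.12) and Ldhb, the other main lactate dehydrogenase subunit, had 0.11 (SE 0.05), and neither passed. Differences between isoforms were not tested. The lactate exporter Slc16a3 rose (1.18, SE 0.05), while Slc16a1, a related carrier, had -0.04 (SE 0.05) and did not pass. The hypoxia list itself, which chose the spots, rose in all 10 genes by construction, with Car9 the most at 3.29, followed by Bnip3 (2.91), Ankrd37 (2.55) and P4ha2 (2.32). The isoforms and carriers beyond the 4 largest changes were picked after the values were seen.

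All 12 proliferation genes fell in hypoxic spots, with a median log2 fold change of -0.40. The largest drops were in Mcm5 (-0.61) and Mcm2 (-0.45), parts of the replicative helicase, and in Rrm2 (-0.60) and Tyms (-0.52), which make DNA precursors. Of 17 genes of oxidative phosphorylation and the citric acid cycle, 3 fell (Idh3a, Uqcrc1 and Ndufs1, -0.24 to -0.14) and Cox4i1 rose (0.23). Of 7 pentose phosphate genes, Pgls rose (0.33) and Rpia fell (-0.31). Over all genes tested 32% were called in either direction, so the calls in these 2 lists were no more frequent than in genes at large. Median depth in the 4 sections was 32527, 55147, 33911 and 27783 UMIs in hypoxic spots and 30609, 37320.0, 33617 and 36513 UMIs in the rest. Hypoxic spots were thus deeper in CC075F1 replicate 2 and shallower in CC080F1 replicate 2. The mitochondrial share was 1.76% to 2.19% against 1.68% to 2.44%. Calls among cell type markers stand beside the same 32% of all genes, which the macrophage and tumor epithelial lists were close to. The endothelial list summed to 38.0 to 98.3 CPM in hypoxic spots and to 103 to 179 CPM in the rest, with 6 of 7 genes lower. The T and NK cell list summed to 23.5 to 60.4 CPM against 44.9 to 97.6 CPM, with 6 of 8 genes lower, and of the 9 macrophage genes 1 was higher and 2 were lower. Of 8 fibroblast genes 5 were lower and 2 higher (median log2 fold change -1.20), with the summed list at 689 CPM against 1321 CPM in CC075F1 replicate 2 and at 2100.1 CPM against 1830 CPM in CC075F1 replicate 1. Skeletal muscle genes were lower in 6 of 8 (median -1.99), adipocyte genes in 4 of the 4 that passed the filter on low counts (median -2.89) and tumor epithelial genes in 2 of 6. By strain, the muscle genes called were 6 of 8 in CC075F1 (median -3.56) and 0 of 8 in CC080F1 (median -0.47). The muscle list stood at 179 CPM in CC075F1 replicate 2 and at 8.21 to 25.2 CPM in the other sections. No gene of the neutrophil, erythrocyte or keratinocyte lists was called. Their part in the members' contrast was not tested.

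Next the level was set against the distance to the edge of the tissue. Distance was counted in grid steps from a spot to the nearest position off tissue, inner gaps included, and spots no more than 3 steps away were taken as the edge. Tissue cut by the frame of the slide has no position off tissue beyond it, which concerned 25, 1, 75 and 58 spots. The edge held 568, 665, 880 and 648 spots. Both CC080F1 sections had deep notches without tissue that opened to the outside, and whether these are margins of the tumor was not tested. Edge spots were shallower, with a median of 18032 to 30120.0 UMIs against 33592 to 46146 UMIs in the interior, and their mitochondrial share was 2.04% to 2.89% against 1.65% to 2.32%.

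Slc2a1, Pgk1, Eno1 and Ldha passed the test as lower at the edge than inside in CC075F1, no member passed in CC080F1, and the difference between the strains did not pass. Slc2a1 was at 54.4 and 80.5 CPM at the edge of the CC075F1 sections against 78.5 and 115 CPM inside, and at 106 and 188 CPM at the edge of the CC080F1 sections against 91.9 and 107 CPM inside. The step was thus down toward the edge in one strain and up in the other. Pgk1 was at 895 and 858 CPM against 1253 and 1165 CPM in CC075F1, and at 961 and 1421 CPM against 916 and 1176 CPM in CC080F1. Eno1 was at 352 and 334 CPM against 532 and 421 CPM in CC075F1, and at 443 and 579.5 CPM against 404 and 546 CPM in CC080F1. For Ldha the edge held 1248 and 1319.5 CPM against 1586 and 1533 CPM in CC075F1, and 1333 and 1723 CPM against 1267 and 1486 CPM in CC080F1. The log2 ratio of edge over interior CPM was below 0 in both CC075F1 sections and above 0 in both CC080F1 sections for 8 of the 10 members, where 1.99% of the 15089 genes tested were. The exceptions were Hk2, with 0.03, 0.20, 0.31 and 0.47 in the 4 sections, and Tpi1, with -0.37, -0.17, -0.06 and 0.27. For all 10 members both CC075F1 values lay under both CC080F1 values, where 7.67% of genes did so.

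In CC075F1 the fit called 4 of 10 members lower at the edge, where 0.968% of genes were called lower and 4.71% in either direction. They were Slc2a1 (log2 fold change -0.67, SE 0.14, adjusted p = 0.0319), Eno1 (-0.61, SE 0.08, adjusted p = 0.00765), Pgk1 (-0.61, SE 0.10, adjusted p = 0.0145) and Ldha (-0.43, SE 0.10, adjusted p = 0.0414). The other 6 were negative without passing, from -0.41 for Tpi1 to -0.03 for Hk2. In CC080F1, 0 of 10 members were called (0.258% of genes were, 39 in all, with 1286 genes and 3 members at an unadjusted p under 0.05), and all 10 values were positive, from 0.10 for Pkm to 0.51 for Slc2a1 (SE 0.13, adjusted p = 0.218). The medians were -0.40 and 0.16, beside -0.03 and -0.00 over all genes.

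The difference between the strains was tested itself and did not pass. The region by strain term of the edgeR fit called 0 of 10 members, where 0.106% of genes were called (16 genes, with 1283, all 10 members among them, at an unadjusted p under 0.05). All 10 differences, CC075F1 minus CC080F1, were negative, led by Slc2a1 at -1.18 (SE 0.19, adjusted p = 0.0861), Pgk1 at -0.79 (SE 0.14, adjusted p = 0.103) and Eno1 at -0.73 (SE 0.12, adjusted p = 0.0860), with Pkm the smallest at -0.34 (SE 0.13). The adjusted p of the members ran up to 0.531 for Pkm. The count depended on the setting. Each setting that called any member also called more genes than the main fit, but the numbers of members and of genes did not rise in step. DESeq2's Wald test called 6 members and 71 genes in all, and edgeR without the filter on low counts 7 and 532. Without the muscle, skin and fat spots edgeR called 2 members and 31 genes. It called 0 members with DESeq2 size factors, library size alone, an edge of 5 steps or spots of at least 10000 UMIs. Without the hypoxic spots, an alternative chosen after seeing the data, 0 members were called and the median difference went from -0.55 to -0.25, with Slc2a1 at -0.63.

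Averaged over the strains, 1 of 10 members was called between edge and interior, where 5.1% of genes were, 0.848% as lower. That gene was Eno1, lower at the edge by a log2 fold change of -0.25 (SE 0.06, adjusted p = 0.0454), and the adjusted p was between 0.0860 and 0.180 when any 1 section was left out. Slc2a1, at -0.08 (SE 0.10), averaged opposite directions.

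Other lists gave values beside these, to be read against the shares of all genes called at the edge of each strain given above. The hypoxia list had 4 of 10 genes called lower at the CC075F1 edge, Car9 (-1.20), Bnip3 (-1.14), Ankrd37 (-0.74) and Ndrg1 (-0.42), and 0 of 10 at the CC080F1 edge. Hypoxic spots made up 14.4% and 13.2% of edge spots against 27.8% and 28.0% of interior spots in CC075F1, and 22.0% and 29.8% against 26.4% and 23.8% in CC080F1. Of the 18 other glycolysis genes, Pdk1 (-0.61), Pgm1 (-0.50) and Pgam1 (-0.46) were called lower at the CC075F1 edge and none at the CC080F1 edge, where Slc16a3 (0.42) and Gpd1 (1.77) had the lowest p. For the pentose phosphate, oxidative phosphorylation and proliferation lists the median log2 fold changes lay between -0.13 and 0.02 in both strains. Endothelial markers were higher at the CC075F1 edge in 6 of 7 genes, at 167 and 150.5 CPM within 3 steps and 45.6 and 55.8 CPM at 13 steps or more, and 0 of 7 were called in CC080F1. The neutrophil list was called higher in 3 of 5 genes at the CC075F1 edge, with log2 ratios of its summed CPM of 1.08, 1.88, 0.56 and 1.27 in the 4 sections. The fit for CC075F1 also called 5 of 8 fibroblast and 6 of 8 skeletal muscle genes higher at the edge, but the summed ratios were 1.68 and 5.93 in replicate 2 and -0.06 and -0.03 in replicate 1, so the summed contrast came from 1 section. The part of these cells and of the hypoxic spots in the members' edge contrast was not tested.

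Along the whole distance, Spearman's rho of the summed members with the steps to the edge was 0.42 and 0.25 for CC075F1 but -0.03 and -0.08 for CC080F1, as a description over 2709 to 3276 spots that share a tumor and in which depth also changes with distance. With the spots thinned to 5000 UMIs it was 0.37, 0.25, -0.01 and -0.06, and given the spot's UMIs 0.42, 0.12, -0.06 and -0.05. By gene, Pgk1 had 0.42 and 0.35 in CC075F1 against -0.02 and -0.08 in CC080F1, Eno1 0.49 and 0.28 against 0.03 and 0.10, and Slc2a1 0.26 and 0.21 against -0.00 and -0.08. In the 3 steps next to the edge the summed members were at 0.838 and 0.898 of the section's own level in CC075F1 and at 1.04 and 1.13 in CC080F1. At 13 steps or more they were at 1.20 and 1.11 in CC075F1 and at 0.905 and 0.967 in CC080F1. CC080F1 replicate 1 had only 177 such spots and reached no deeper than 17 steps, against 23 to 29 steps in the other sections.

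**Figure D5:**
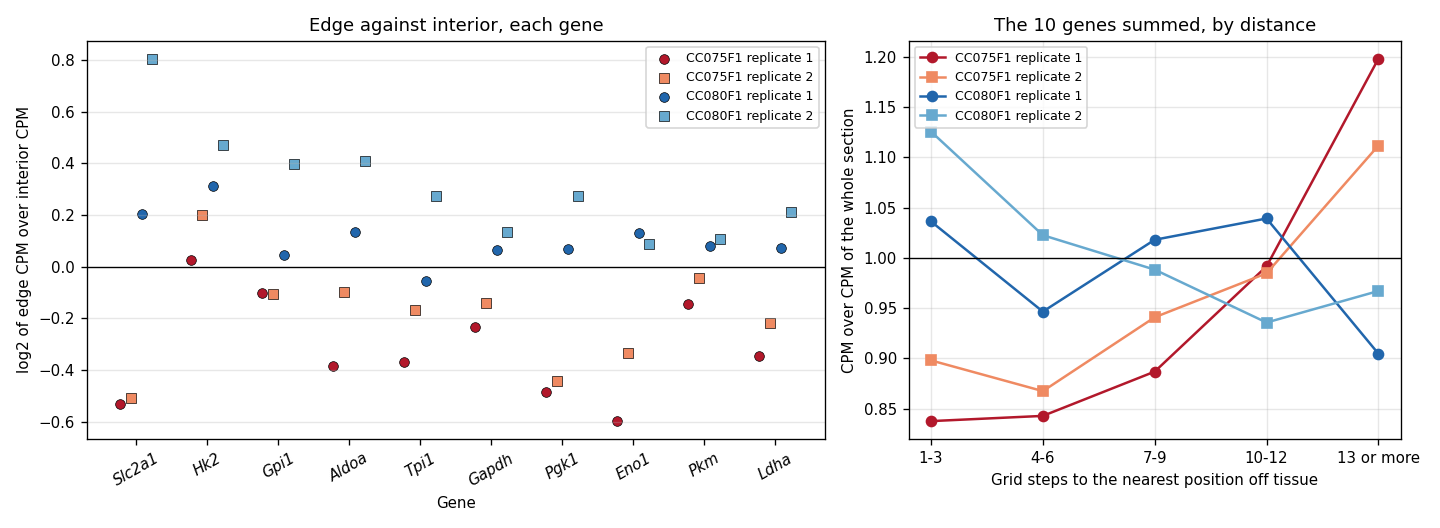
Left, log2 of the edge CPM over the interior CPM for each gene and section, with 0 for equal levels. Right, the 10 genes summed, as CPM over the CPM of the whole section, by grid steps to the nearest position off tissue. Both CC075F1 sections (reds) lie under both CC080F1 sections (blues) for all 10 genes, and the CC075F1 lines climb to 1.20 and 1.11 at 13 steps or more while the CC080F1 lines end at 0.905 and 0.967.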

How the data were processed

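The authors processed the reads with Space Ranger 1.3.1 (per the file headers) on the mouse GRCm38/mm10 reference and deposited raw UMI counts per gene and spot under tissue, with no normalization. The submitters' processing notes also name Seurat 5.0.1, which was not used here. UMIs were summed per section, and per section and spot class. The quasi-likelihood test of edgeR 4.0.16 under R 4.3.3 was run on these sums after filterByExpr and TMM scaling, with strain as the only term, or with the section as a block plus spot class and its term by strain, over all genes that passed. Calls used Benjamini-Hochberg adjusted p under 0.05, and log2 fold changes carry SEs derived from the F statistic. The test in the study shuffles spots and was not used, because spots of 1 section are not replicates. Each section is 1 tumor. The p-values rest on the spread between sections, which edgeR moderates over genes and, for spot classes, pools over both strains. They do not measure the spread within 1 strain alone. For Slc2a1 the log2 edge ratio had an SD of 0.015 in CC075F1 and 0.43 in CC080F1, beside fitted SEs of 0.14 and 0.13. The sections held 82594649 to 146460975 UMIs.

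Edge spots lay within 3 grid steps of a position off tissue, and hypoxic spots were the top 25% by the hypoxia list. Correlations were Spearman's, on UMIs per 10000 of a spot. Spots thinned to 5000 UMIs left out shallower spots, 18 to 58 per section. A spot with 0 UMIs was left out. Promoter windows came from RefSeq on GRCm38.p6. On simulated data the strain fit recovered 43% of 2-fold and 100% of 4-fold changes, with 3 false among 146 calls. The edge and hypoxia fits recovered 100% of both, with 12 false among 212 calls and 10 among 210. The simulated section effects were shared by both spot classes of a section, which the block removes. The strain difference of a spot class was not simulated. The study's methods describe 4 tumor blocks sectioned onto a Visium slide, and no slide identifier was used here. Alternatives were other scalings, no filter, DESeq2 1.42.0, each section left out, other edge and hypoxia definitions and a replicate block.

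The members and the other gene lists were chosen with earlier results of these data known. Besides the 10 members, the genes named are those past the threshold in a list, up to 4 per list and comparison with the largest change, or up to 2 with the lowest p where none passed, and the 10 most like and 5 most opposed to the summed members.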

Additional observations from a re-analysis of the deposited data

Results flagged for a closer look

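For 8 members the log2 ratio of edge over interior CPM was below 0 in both CC075F1 sections and above 0 in both CC080F1 sections. The CC075F1 mean minus the CC080F1 mean was -1.02 for Slc2a1, -0.33 for Gpi1, -0.51 for Aldoa, -0.28 for Gapdh, -0.63 for Pgk1, -0.58 for Eno1, -0.19 for Pkm and -0.42 for Ldha, on plain CPM with 2 sections per strain. The same direction in all sections of each strain singled them out. The difference itself was tested in edgeR and passed for none of the 8, with adjusted p from 0.0860 (Eno1) to 0.531 (Pkm). With 2 sections per strain no group could be tested for a single section that stands apart.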

How the results depend on the processing

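The hypoxia result kept 10 of 10 members called as higher under all 10 alternatives run, and the strain comparison kept 0 of 10 under all 11, with adjusted p for the members of at least 0.129. The strain direction of single members was less firm: with library size alone Slc2a1 was -0.22, Eno1 -0.0753, Gpi1 -0.0932 and Pkm -0.0164, and with interior spots alone Hk2 was 0.0365. With 1 section left out Slc2a1 ranged from -0.48 (without CC075F1 replicate 2) to 0.60, Eno1 from -0.0164 (without CC080F1 replicate 1) to 0.53 and Hk2 from -0.20 to 0.10 (without CC080F1 replicate 1). Calls over all genes between strains were 14 in the main fit, 40 with library size alone, 480 without the filter, 194 with DESeq2's Wald test and 287 with a replicate block, and 11 to 207 with 1 section left out.

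Between edge and interior the members called were 1 in the main fit, 0 with library size alone, with spots of at least 10000 UMIs and without the hypoxic spots, 2 without the filter and with DESeq2's Wald test, and 0 with any 1 section left out. Values that changed sign there were Gpi1 at 0.0589 and Aldoa at 0.0159 with library size alone, and Slc2a1 at 0.10, Gpi1 at 0.0234 and Aldoa at 0.0462 without the hypoxic spots. With 1 section left out Slc2a1 ranged from -0.24 to 0.075, Gpi1 from -0.11 to 0.0803 and Aldoa from -0.14 to 0.0181, each highest without CC080F1 replicate 1. Genes called were 770 in the main fit and 1999 without the filter, 376 without the hypoxic spots, and from 36 without CC075F1 replicate 2 to 1326 without CC080F1 replicate 1. For the strain difference at the edge the members called were 0 in the main fit, 7 without the filter, 6 with DESeq2's Wald test, 2 without muscle, skin and fat spots, 1 with the outer boundary alone and 0 to 2 with 1 section left out. They were 5 with a replicate block, but same-numbered sections share only a number (r = 0.165 between their deviations over 15572 genes, with 2 pairs). All 10 differences stayed negative under all 14 alternatives. Genes called there ran from 1 without CC075F1 replicate 2 to 501 without CC080F1 replicate 2, with 532 without the filter, 71 with DESeq2, 345 with the replicate block, 31 without muscle, skin and fat spots and 9 without the hypoxic spots, beside 16.

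The mean over sections of the median pair correlation was 0.54. It was 0.24 with spots thinned to 5000 UMIs and 0.29 without the hypoxic spots. The strain difference in the summed edge to interior log2 ratio was -0.37, and -0.18 without the hypoxic spots. The strain difference in rho with distance was 0.39, and it was 0.33 given the spot's UMIs and 0.30 without the hypoxic spots. The moves in rho were smaller than its SD between the CC075F1 sections (0.12) and larger than that between the CC080F1 sections (0.03). The move in the summed log2 ratio was larger than its SD in either strain (0.081 in CC075F1 and 0.094 in CC080F1). The cause of these changes was not tested. The settings without the hypoxic spots were chosen after seeing the data. With 2 sections per strain, the SEs between strains (0.20 to 0.49) limit what could be detected.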
